A study of Mus musculus with 2 samples.

Results

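The genes described here encode sensors of foreign or misplaced nucleic acid and the adaptors that pass their signal on: Ddx58, Ifih1, Dhx58, Mavs, Zbp1, Tmem173, Mb21d1, Tlr3, Eif2ak2 and Adar. They were chosen by gene symbol, and all 10 were found among the 55487 named records, with Tmem173 and Mb21d1 listed under their newer symbols Sting1 and Cgas. RNA was sequenced from LPC-HRas cells, a mouse line labelled as hepatocellular carcinoma, infected with lentivirus that carried the hairpin shETV4, directed at Etv4, or the control hairpin shRFP. Both groups thus carried a lentivirus and a hairpin, and no uninfected cells were analysed here. The hairpin sequences, the number of hairpins and whether cells were cloned were not stated, and the value columns carry a suffix of unknown meaning. There was 1 library per group, so no value has a replicate, no difference was tested, and every statement is about these 2 libraries. Levels are TPM, which are set per transcript length and per total RNA measured; the sequencing depth is unknown and no counting error can be given. A difference is log2(TPM + 1) in shETV4 minus that in shRFP, and genes that reached 1 TPM in either library were evaluated. Calls of higher or lower mean 2-fold or beyond on that scale, which makes the differences of weakly expressed genes look smaller than they are. Fold values are plain ratios of TPM, shETV4 over shRFP unless said otherwise.

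Cells detect viral or misplaced nucleic acid with receptors in the cytosol and in endosomes. RIG-I-like receptors bind RNA and signal through the mitochondrial protein MAVS, while cGAS binds DNA and makes the messenger cGAMP, which activates STING; both routes lead through TBK1 and IRF3 to type I interferon. Many sensor genes are themselves induced by interferon, so their level is commonly read as part of the interferon response as well as of the capacity to sense. ADAR1 edits cellular RNA so that it is not sensed, and ZBP1 and PKR act beside these routes, ZBP1 in cell death and PKR in the arrest of translation.

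Of the 10 genes, Zbp1 and Dhx58 were called higher in the shETV4 library and none was called lower. The 2 genes are 20% of the list, while 3.39% of the 12968 evaluated genes were called higher and 7.06% were called lower. Ddx58 and Adar lay just inside the 2-fold limit, at differences of 0.96 and 0.98, and past it once the libraries were rescaled to a typical ratio of 1. The other 6 genes ranged from -0.30 for Mb21d1 and Mavs to 0.42 for Tmem173. The median difference was 0.41 over the 10 genes and -0.10 over all evaluated genes. Of the 10 genes 8 were above 0, and of the 12968 evaluated genes 5395 were. Etv4, the target of the hairpin, was at 16.2 TPM with shETV4 and 73.2 TPM with shRFP, a difference of -2.11.

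The summed level of the 10 genes was 339 TPM with shETV4 and 181 TPM with shRFP. Zbp1 made up 17.0% of that sum with shETV4 and 3.52% with shRFP. Without Zbp1 and Dhx58 the other 8 genes summed to 243 TPM with shETV4 and 168 TPM with shRFP, a ratio of 1.45. With shETV4 the order of levels ran from Ddx58, Adar, Zbp1, Tmem173 and Dhx58 to Mavs, Eif2ak2, Ifih1, Mb21d1 and Tlr3. With shRFP it ran from Tmem173, Ddx58, Adar, Mavs and Eif2ak2 to Mb21d1, Dhx58, Ifih1, Zbp1 and Tlr3. Zbp1 was thus the third highest of the genes with shETV4 and the ninth with shRFP. With 1 library in each group it cannot be said which neighbours in these orders differ beyond their spread. The libraries are from bulk RNA, in which more cells that express a gene and more RNA per cell cannot be told apart.

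**Figure D1:**
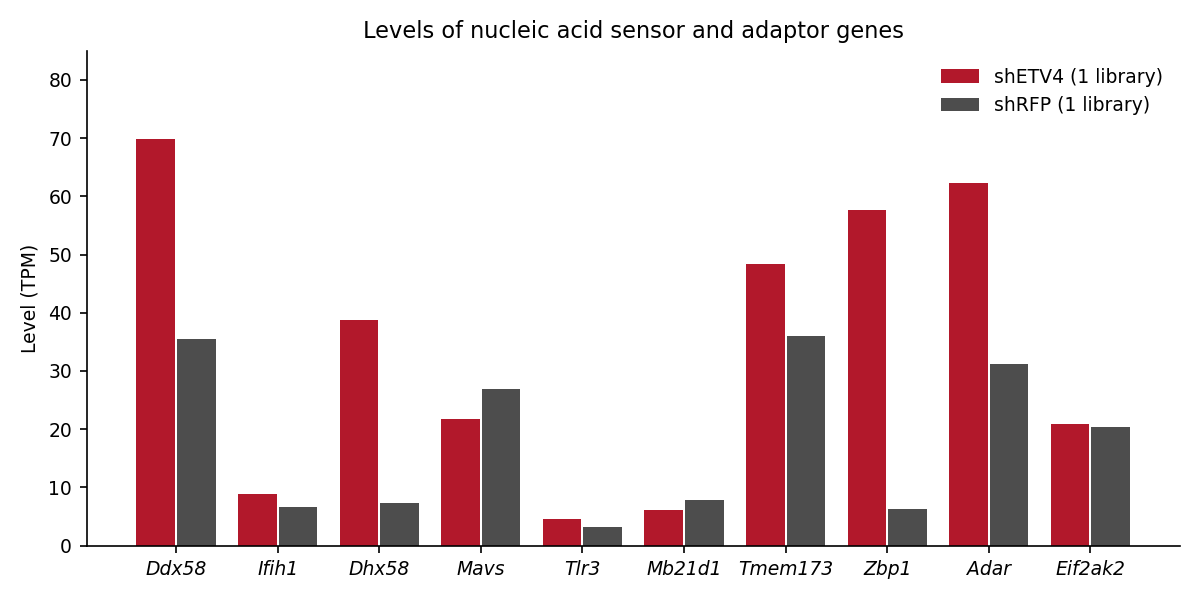
Level in TPM (linear axis from 0) of the 10 sensor and adaptor genes in the shETV4 library (red, left bar) and the shRFP library (grey, right bar), 1 library each and no error bars. Zbp1 is at 57.6 TPM with shETV4 and 6.38 TPM with shRFP, while Eif2ak2 is at 20.9 TPM with shETV4 and 20.4 TPM with shRFP.

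The RIG-I-like receptors differed unequally. Ddx58 (ENSMUSG00000040296), which encodes RIG-I, a helicase that binds short double-stranded RNA with a phosphate-bearing end, was at 69.9 TPM with shETV4 and 35.5 TPM with shRFP, 1.97-fold. Ifih1, which encodes MDA5, the receptor for long double-stranded RNA, was at 8.81 TPM with shETV4 and 6.62 TPM with shRFP, 1.33-fold. Dhx58 (ENSMUSG00000017830), which encodes LGP2, a related helicase that lacks the signalling domains and modulates the other receptors, was at 38.8 TPM with shETV4 and 7.30 TPM with shRFP, 5.31-fold and a difference of 2.26. Of the 3 receptor genes, only Dhx58 was called higher on the deposited scale, and Ddx58 as well when the libraries were rescaled or GC content was adjusted. Their summed level was 117 TPM with shETV4 and 49.4 TPM with shRFP, of which Dhx58 gave 33.0% with shETV4 and 14.8% with shRFP. Ddx58 gave the largest part in both libraries, 59.5% with shETV4 and 71.8% with shRFP, and Ifih1 gave 7.50% with shETV4 and 13.4% with shRFP. These genes lie at chr4:40203773-40239828 (Ddx58), chr2:62595798-62646255 (Ifih1) and chr11:100694884-100704271 (Dhx58), all on the minus strand of GRCm38. An antisense gene, Dhx58os, overlaps 4.31% of the exonic bases of Dhx58 and was at 0.17 TPM with shETV4 and 0.05 TPM with shRFP.

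Mavs, the adaptor on which the RIG-I-like receptors converge, was at 21.8 TPM with shETV4 and 27.0 TPM with shRFP, 1.24-fold lower with shETV4. A ratio of levels within 1 library does not depend on how that library was scaled. Such a ratio, here and below, still keeps any difference between its genes that goes with GC content. The transcripts had a median GC content of 45.5% for Ddx58, 44.3% for Ifih1, 54.0% for Dhx58 and 53.5% for Mavs. The level of Ddx58 per Mavs was 3.21 with shETV4 and 1.31 with shRFP, and that of Dhx58 per Mavs was 1.78 with shETV4 and 0.270 with shRFP. For Ifih1 the ratio to Mavs was 0.405 with shETV4 and 0.245 with shRFP. All 3 receptors together stood at 5.40 per Mavs with shETV4 and 1.83 with shRFP. Mavs lies at chr2:131234063-131248025 on the plus strand and shares no exonic bases with other genes.

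RefSeq promoter windows of 300 bases, from 250 bases before the start site to 50 bases that follow, were found for 7 of the 10 genes; Dhx58, Zbp1 and Tmem173 had none. They were searched on both strands for the letters GAAANNGAAA, the core of the interferon-stimulated response element that interferon regulatory factors bind. The windows of 3 genes, Ddx58, Ifih1 and Eif2ak2, held them, as did 3.44% of the 32851 windows in the table. The windows of Mavs, Mb21d1, Tlr3 and Adar did not, which says only that these letters are not in those 300 bases. The windows of the RNA receptors are shown because the same element letters stand in a gene near the 2-fold limit and in one well inside it as deposited. After adjustment for GC content the differences were 1.34 for Ddx58 and 0.90 for Ifih1. Capitals mark every motif match in these windows. They are chr4:40239776-40240075 for Ddx58 and chr2:62646206-62646505 for Ifih1, on the minus strand of GRCm38.p6, written 5′ to 3′ along the gene.
Ddx58: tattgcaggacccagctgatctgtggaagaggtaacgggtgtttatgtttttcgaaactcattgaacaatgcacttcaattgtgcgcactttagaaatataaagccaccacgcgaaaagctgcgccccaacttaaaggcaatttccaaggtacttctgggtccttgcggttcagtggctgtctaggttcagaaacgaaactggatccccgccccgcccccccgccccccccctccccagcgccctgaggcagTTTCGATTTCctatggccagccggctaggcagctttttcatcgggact
Ifih1: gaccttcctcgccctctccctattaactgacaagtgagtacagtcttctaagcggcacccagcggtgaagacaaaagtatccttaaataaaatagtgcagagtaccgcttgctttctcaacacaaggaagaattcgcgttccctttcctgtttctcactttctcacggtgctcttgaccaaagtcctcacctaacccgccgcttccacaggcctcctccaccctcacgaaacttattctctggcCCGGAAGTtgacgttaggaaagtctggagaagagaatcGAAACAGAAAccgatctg
In Ddx58 the capitals are the match on the reverse strand, which begins at base 3, counting the start site as 1 and bases before it as negative. In Ifih1 the second run of capitals is this match, which begins at base 33. The other run of capitals in Ifih1 is CCGGAAGT, a core of the sites that ETS factors bind, the family to which Etv4 belongs; it begins at base -6, and 3.89% of all windows hold it. Another ETS core, CAGGAAGT, is in 3.33% of all windows and in neither of these.

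Tlr3 and the DNA-sensing pair lay within 2-fold. Tlr3, which detects double-stranded RNA in endosomes rather than the cytosol, had the lowest level of the list in both libraries, at 4.50 TPM with shETV4 and 3.15 TPM with shRFP, 1.43-fold. Mb21d1, which encodes the DNA sensor cGAS, was at 6.19 TPM with shETV4 and 7.86 TPM with shRFP, 1.27-fold lower with shETV4. Tmem173, which encodes STING, the adaptor that cGAMP activates, was at 48.4 TPM with shETV4 and 36.0 TPM with shRFP, 1.34-fold. Sensor and adaptor thus lay on opposite sides of 0 as deposited, at -0.30 and 0.42. After adjustment for GC content both were above 0, at 0.02 and 0.42. The level of Tmem173 per Mb21d1 was 7.81 with shETV4 and 4.58 with shRFP. Tlr3 lies at chr8:45395665-45411080 and Mb21d1 at chr9:78430526-78443237, both on the minus strand of GRCm38, as does Tmem173 at chr18:35733679-35740554. Of their exonic bases, Tlr3 shares 7.32% with Gm45542 and Mb21d1 4.87% with Gm8093, both genes at 0 in each library.

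Zbp1 had the largest difference of the 10 genes. ZBP1 binds nucleic acid in the left-handed Z form and can start necroptosis and apoptosis through RIPK3. Its gene (ENSMUSG00000027514), at chr2:173206612-173218923 on the minus strand of GRCm38, was at 57.6 TPM with shETV4 and 6.38 TPM with shRFP, 9.03-fold and a difference of 2.99. It shares no exonic bases with other genes. Among 11561 evaluated protein-coding genes only 3 had a larger difference, and Dhx58 had the rank 15 from the highest. The kinase gene Ripk3 was at 35.0 TPM with shETV4 and 24.4 TPM with shRFP, so that the level of Zbp1 per Ripk3 was 1.65 with shETV4 and 0.262 with shRFP. The protein-coding genes whose pair of levels was nearest to that of Zbp1, by Euclidean distance over 2 libraries on the log2(TPM + 1) scale, were Ifit3b at 0.45, Irgm2 at 0.60 and Agt at 0.75. Ifit3b was at 42.9 TPM with shETV4 and 7.31 TPM with shRFP.

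Adar (ENSMUSG00000027951) encodes ADAR1, whose interferon-induced form also has a Z-binding domain and which converts adenosine to inosine in double-stranded RNA. It was at 62.2 TPM with shETV4 and 31.2 TPM with shRFP, just under 2-fold both as a plain ratio and on the scale of the call. Zbp1 per Adar was 0.926 with shETV4 and 0.205 with shRFP. Adar lies at chr3:89715022-89753446 on the plus strand of GRCm38; it shares 16.8% of its exonic bases with Chrnb2 on the other strand, a gene at 0.73 TPM with shETV4 and 0.35 TPM with shRFP. Eif2ak2 encodes PKR, the kinase that stops translation by phosphorylating eIF2 alpha when it binds double-stranded RNA. It was at 20.9 TPM with shETV4 and 20.4 TPM with shRFP, 1.02-fold, and lies at chr17:78852564-78882573 on the minus strand, with 4.32% of its exonic bases in exons shared with other genes. PKR and ADAR1 are both known as interferon-induced proteins that bind double-stranded RNA. The level of Eif2ak2 per Adar was 0.336 with shETV4 and 0.656 with shRFP. The transcripts of the 2 genes differ in GC content, at 44.4% for Eif2ak2 and 53.4% for Adar. After adjustment for GC content the differences were 0.56 for Eif2ak2 and 0.91 for Adar, against 0.03 and 0.98 as deposited.

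The windows of Eif2ak2 and Adar are shown as the pair of double-stranded RNA binding genes whose differences were unlike as deposited, and less so after adjustment for GC content. That of Eif2ak2 is chr17:78882523-78882822 on the minus strand. For Adar, which has 3 windows in the table, the one that holds a match is shown, chr3:89730468-89730767 on the plus strand, both of GRCm38.p6 from RefSeq.
Eif2ak2: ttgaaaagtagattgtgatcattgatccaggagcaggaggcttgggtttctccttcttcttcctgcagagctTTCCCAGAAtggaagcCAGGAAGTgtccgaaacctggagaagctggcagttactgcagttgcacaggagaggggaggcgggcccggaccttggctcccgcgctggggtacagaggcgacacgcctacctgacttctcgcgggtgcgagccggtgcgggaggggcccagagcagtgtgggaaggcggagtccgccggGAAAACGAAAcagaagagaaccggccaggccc
Adar: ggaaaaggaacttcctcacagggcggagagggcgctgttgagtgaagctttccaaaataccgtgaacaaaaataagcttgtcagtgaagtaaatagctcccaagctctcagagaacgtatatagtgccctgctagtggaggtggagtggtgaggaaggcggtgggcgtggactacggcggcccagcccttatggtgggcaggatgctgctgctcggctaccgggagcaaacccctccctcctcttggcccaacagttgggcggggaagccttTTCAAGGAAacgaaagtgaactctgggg
In Eif2ak2 the response element letters begin at base 19. The letters TTCNNNGAA, the core of the gamma-activated site, begin at base -178, and the ETS letters CAGGAAGT begin at base -162. In Adar the capitals are a TTCNNNGAA match that begins at base 23. Of all windows, 8.30% hold TTCNNNGAA. No matches of different motifs overlap in any window shown. The windows of Mavs, Mb21d1 and Tlr3 and the other windows of Adar held none of the 4 motifs.

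**Figure D2:**
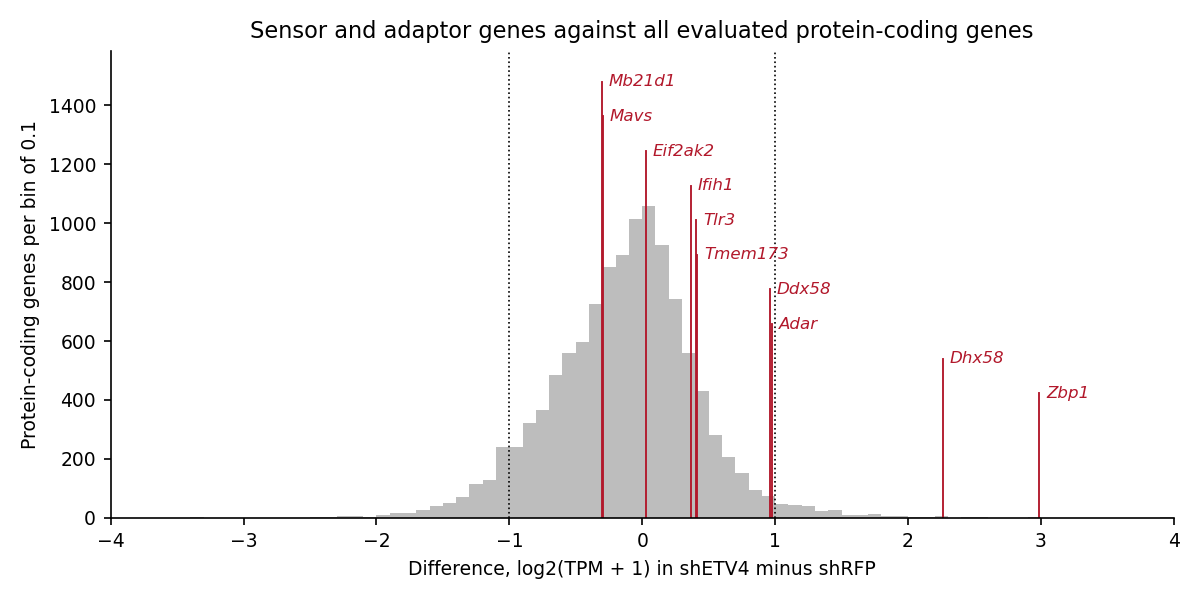
Histogram of the difference, log2(TPM + 1) in shETV4 minus shRFP, over 11561 evaluated protein-coding genes in bins of 0.1 (grey; values beyond the axis are counted in the outermost bins), with a red line at each of the 10 genes, whose height only spaces the names. Dotted lines mark 2-fold; Zbp1 at 2.99 and Dhx58 at 2.26 lie past the upper line, and Ddx58 and Adar lie just inside it.

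Among the 11561 protein-coding genes, the highest 5% began at a difference of 0.69, and 4 of the 10 genes lay above it: Zbp1, Dhx58, Adar at rank 262 and Ddx58 at rank 273. Tmem173, Tlr3 and Ifih1 were above 87.8%, 87.4% and 85.7% of the genes. Eif2ak2 was above 61.4%. Mavs and Mb21d1 were above 35.0% and 34.8%, near each other and below the median of -0.10.

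The other genes of these pathways were taken from 8 lists, 119 genes in all when each is counted once, of which 95 were evaluated. Of these, 3 were called higher and 8 lower, shares of 3.16% and 8.42% that are close to the 3.39% and 7.06% of all evaluated genes, and the median difference was -0.07. The genes called higher were Irf7, Trex1 and Ccl5. On either of the other scales for the libraries Tomm70a, Itch and Prkdc, called lower as deposited, came inside the limit, and Ticam1 came past it as higher.

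Regulators of the RIG-I-like receptors and of MAVS held 4 genes called lower and none higher among 14, with a median of -0.47. The share called lower was 28.6%, against 7.06% of all evaluated genes. Ddx3x, an RNA helicase that takes part in signalling to TBK1, was at 51.5 TPM with shETV4 and 146 TPM with shRFP. Tax1bp1, an adaptor that restrains antiviral signalling, was at 14.7 TPM with shETV4 and 35.2 TPM with shRFP. Tomm70a, a mitochondrial import receptor that binds MAVS, was at 22.4 TPM with shETV4 and 45.9 TPM with shRFP, and Itch, a ubiquitin ligase that targets MAVS, stood exactly at the 2-fold limit. All 4 fall in the lowest of 10 equal bins of GC content, in which 29.1% of all evaluated genes were called lower and the median was -0.74. After adjustment for GC content none of the 4 was past 2-fold, and the median of the list was -0.19. Pcbp2, which brings Itch to MAVS, had the highest level, at 695 TPM with shETV4 and 835 TPM with shRFP.

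Among 19 kinases, adaptors and factors further down the routes, 1 gene was called higher and 1 lower, with a median of -0.05. Irf7, which encodes a factor that amplifies the interferon response, was at 125 TPM with shETV4 and 20.4 TPM with shRFP, a difference of 2.55. Chuk, which encodes the kinase IKK alpha, was at 5.76 TPM with shETV4 and 13.8 TPM with shRFP. Nfkb1, an NF-kappa-B subunit gene and the highest of the list by mean level over both libraries, was at 63.3 TPM with shETV4 and 83.8 TPM with shRFP. Tbk1 and Irf3, the kinase and factor on which both routes meet, lay within 2-fold at -0.51 and 0.25.

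Of 20 genes of DNA sensing, DNA clearance and cGAMP handling, 19 were evaluated, with 1 called higher, 2 lower and a median of -0.12. Enpp1, the ectoenzyme that degrades cGAMP, was at 2.29 TPM with shETV4 and 13.5 TPM with shRFP, a difference of -2.14. Trex1, an exonuclease that removes cytosolic DNA, was at 45.1 TPM with shETV4 and 18.8 TPM with shRFP, but its exonic bases are all shared with the gene Atrip. Prkdc, the catalytic subunit of a DNA-dependent kinase, was at 0.62 TPM with shETV4 and 2.29 TPM with shRFP. Banf1, a chromatin protein that limits cGAS on nuclear DNA, had the highest level, at 327 TPM with shETV4 and 355 TPM with shRFP. Beside Tmem173 and Mb21d1, the cGAMP pathway thus included a gene that degrades the messenger and differed by more than either.

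No gene was called on the deposited scale in 3 of the lists. Of 17 Toll-like receptors and adaptors, 10 were evaluated, with a median of 0.06; Cnpy3, a chaperone of these receptors, was at 56.8 TPM with shETV4 and 53.9 TPM with shRFP. Ticam1, the adaptor of Tlr3, was at 13.5 TPM with shETV4 and 6.36 TPM with shRFP, a difference of 0.97, and Tlr3 per Ticam1 was 0.335 with shETV4 and 0.495 with shRFP. The endosomal receptor genes Tlr7, Tlr8 and Tlr9 were at no more than 0.06 TPM in either library. Of 13 partners of Zbp1 in cell death and related genes, 10 were evaluated, all within 2-fold, with a median of 0.26. Of 7 adenosine deaminase genes, 4 were evaluated, with a median of -0.22; Adat1, which edits transfer RNA, was at 8.23 TPM with shETV4 and 10.1 TPM with shRFP.

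Among 18 genes of eIF2 alpha kinases and the stress response, 1 was called lower and none higher, and the median was -0.17. Eif2s2, the beta subunit of eIF2, was at 36.2 TPM with shETV4 and 97.4 TPM with shRFP. Atf4, the factor translated when eIF2 alpha is phosphorylated, was at 199 TPM with shETV4 and 231 TPM with shRFP. Eif2ak2 stood at 0.457 of the summed level of the other 3 kinases of eIF2 alpha with shETV4 and at 0.367 with shRFP.

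The listed interferon and other cytokine genes were mostly at 0. Of 13, 3 were evaluated and 9, among them the interferon alpha, lambda and gamma genes listed, were at 0 in both libraries. Ifnb1, interferon beta, was at 0.68 TPM with shETV4 and listed at 0 with shRFP, below the level needed for evaluation. Ccl5, a chemokine gene, was called higher, at 441 TPM with shETV4 and 164 TPM with shRFP, a difference of 1.42. Cxcl10, another chemokine gene, was at 197 TPM with shETV4 and 122 TPM with shRFP, and was not called. Il6 was at 2.46 TPM with shETV4 and 5.24 TPM with shRFP, 2.13-fold lower with shETV4 as a plain ratio but at -0.85 on the scale of the call, and so was not called with a pseudocount of 1, though it was past the limit with a pseudocount of 0.1.

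**Figure D3:**
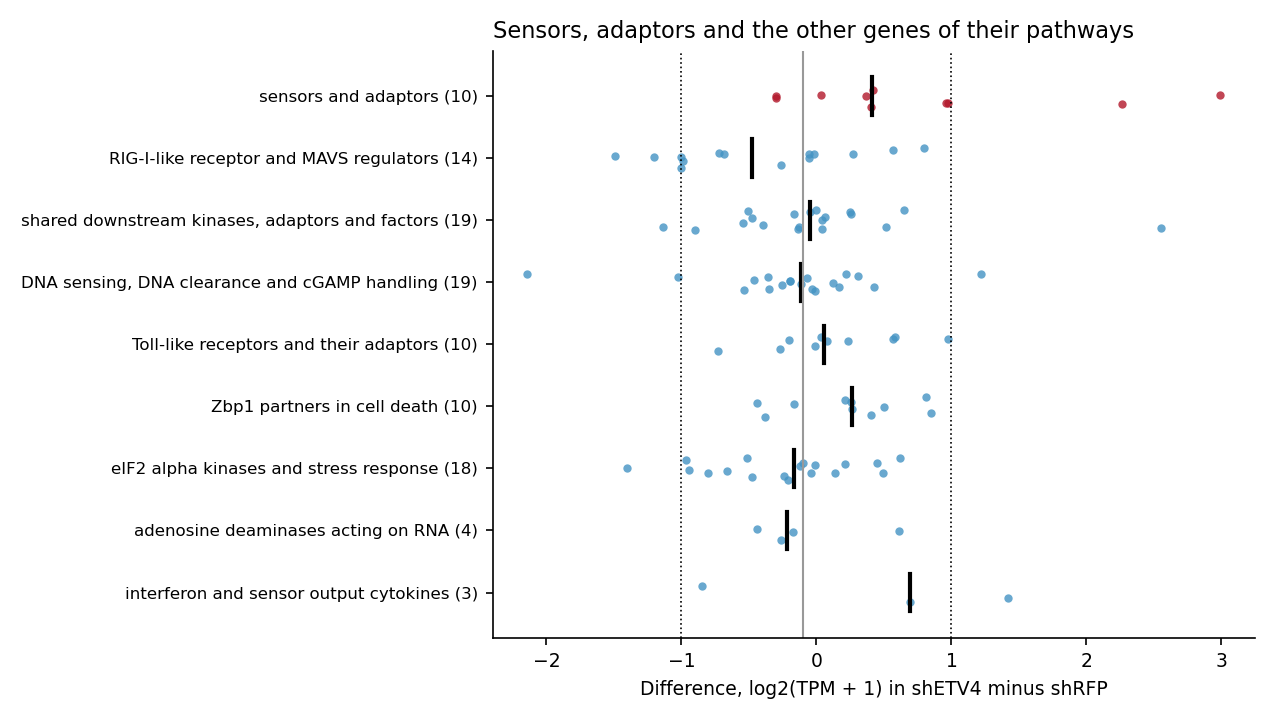
Difference, log2(TPM + 1) in shETV4 minus shRFP, of the evaluated genes (points, number in brackets; vertical jitter has no meaning) among the sensors and adaptors (red) and 8 pathway lists (blue), with the median of each list as a black bar. The grey line is the median of all evaluated genes, -0.10, and dotted lines mark 2-fold. The median as deposited is 0.41 for the sensors and adaptors and -0.47 for the regulators of RIG-I-like receptors and MAVS. After adjustment for GC content, not drawn here, these medians are 0.90 and -0.19.

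The difference moved with base composition across the whole data, with a rank correlation of 0.52 between the difference and the median GC content of transcripts over 12947 genes, which share libraries and are not independent. The 10 genes ranged from 42.3% for Tlr3 to 54.0% for Dhx58, with a median of 49.1%, against 50.7% over all. Dhx58, Adar and Mavs fall in the same bin when genes are cut by GC content into 10 equal bins, where the median difference was 0.06 and 3.63% of genes were called higher. Zbp1 and Tmem173 share a bin with a median of -0.02, in which 3.47% were called higher. Ddx58 and Mb21d1 share another, with a median of -0.37 and 3.86% called higher. Ifih1 and Eif2ak2 fall in a bin with a median of -0.55 and 1.08% called higher, and Tlr3 in the bin of lowest GC content, with a median of -0.74 and 1.93% called higher.

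After the median difference of genes of like GC content was subtracted, the value was 2.97 for Zbp1 and 2.20 for Dhx58, close to the values as deposited. It was 1.34 for Ddx58 and 1.06 for Tlr3, both past 2-fold, 0.90 for Ifih1, 0.56 for Eif2ak2 and 0.02 for Mb21d1, so that the sign of Mb21d1 depends on the adjustment. Adar was at 0.91, Tmem173 at 0.42 and Mavs at -0.37. Mavs was then the only gene of the 10 below 0, 4 were past 2-fold against 3.98% of all genes, and the median of the 10 was 0.90. The part of base composition in the differences as deposited was not tested beyond this adjustment.

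**Figure D4:**
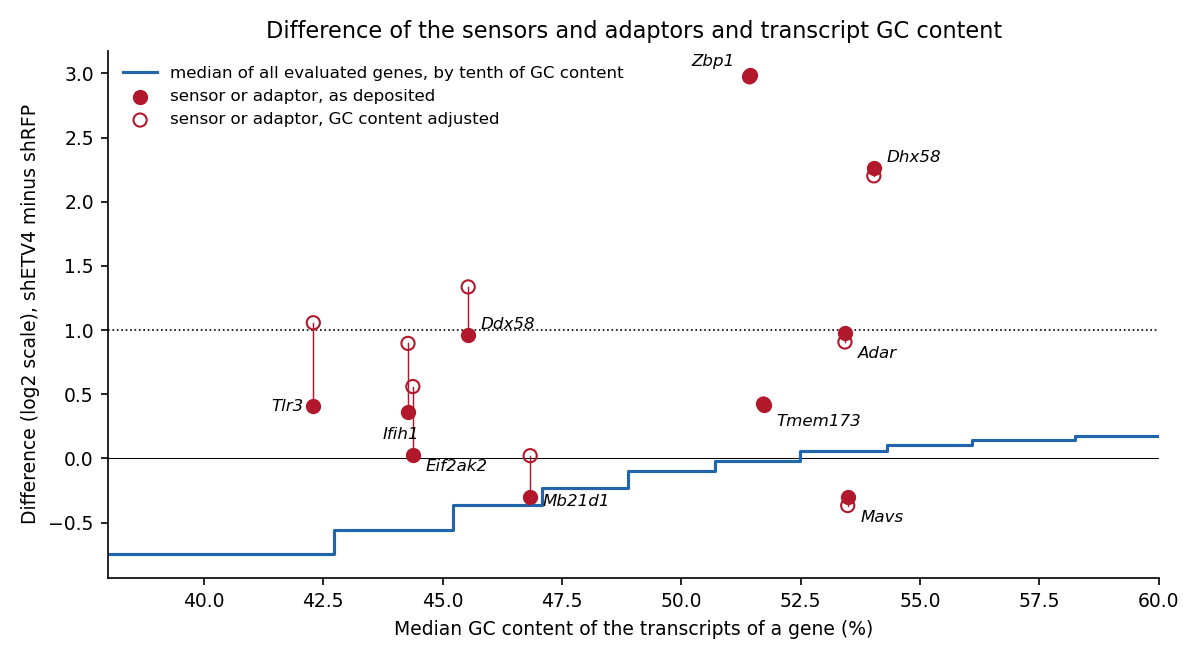
Difference (log2 scale, shETV4 minus shRFP) of the 10 genes against the median GC content of their transcripts in percent, as deposited (filled circles) and after adjustment (open circles), with the median of all evaluated genes in each of 10 bins of GC content (blue steps). Open and filled circles nearly coincide for Zbp1, Dhx58 and Tmem173, and lie apart for Tlr3, Ifih1, Eif2ak2 and Ddx58, whose transcripts are poor in GC.

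The scale of the libraries bore on the genes near the limit. The trimmed mean of log2 ratios was -0.11 and the median log2 ratio of genes at 5 TPM or more was -0.07, so a typical gene was slightly lower with shETV4 on the deposited scale. With either set to 0, Ddx58 (1.07 and 1.03) and Adar (1.09 and 1.04) were past 2-fold, so that 4 of the 10 genes were called higher, against 4.03% and 3.79% of all evaluated genes. With the limit at 1.5-fold the same 4 genes were called, against 8.61% of all. Zbp1 and Dhx58 were past 2-fold under all 10 alternatives tried, and past 3-fold on the scale of the call. Mavs was below 0 under all 10, from -0.37 to -0.19. The alternatives of filter, threshold and gene set leave the difference of a gene as it was. Only those of pseudocount, scale and GC content could move these values.

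**Figure D5:**
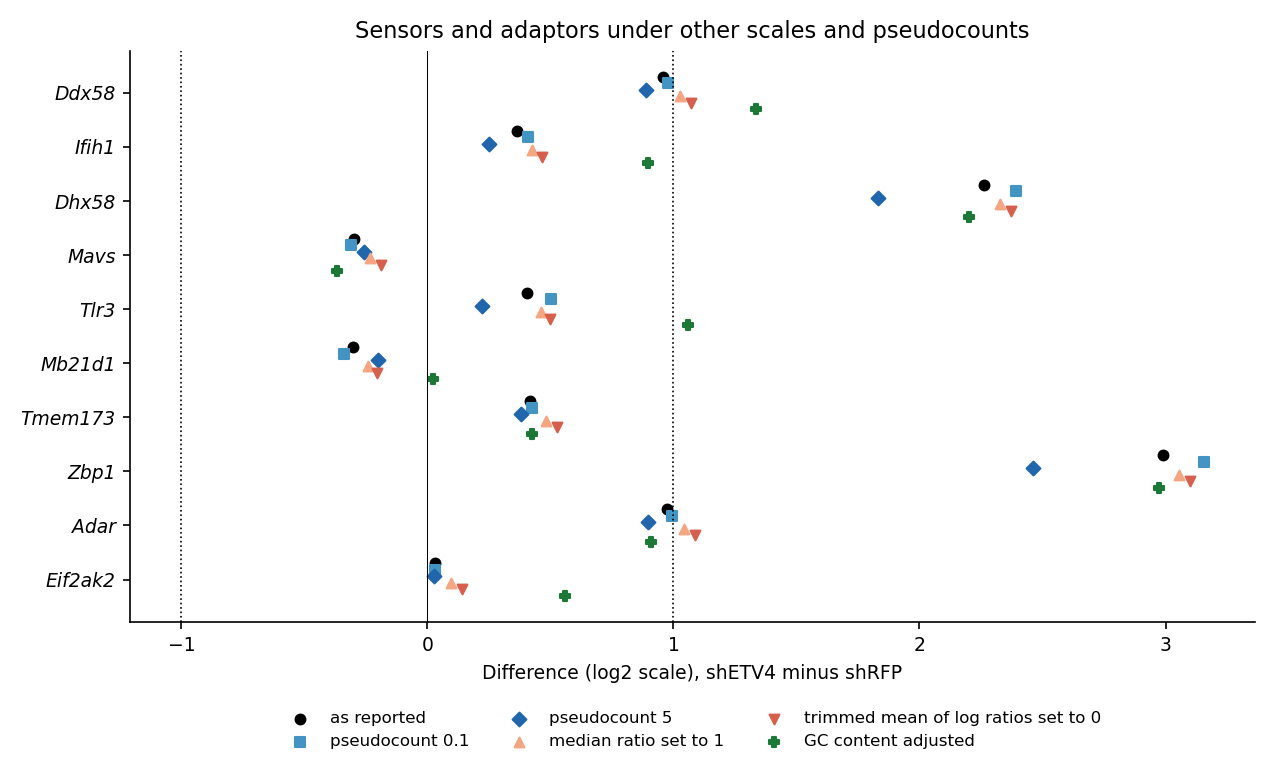
Difference (log2 scale, shETV4 minus shRFP) of each of the 10 genes as reported (black circles) and under 5 alternatives of pseudocount, scale and GC content adjustment; dotted lines mark 2-fold. Zbp1 and Dhx58 lie past the upper line throughout, Ddx58 and Adar lie on either side of it, and Tlr3 crosses it only with the GC content adjustment.

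Markers of other cell types were checked in both libraries. None of 12 hepatocyte markers reached 1 TPM, with sums of 1.65 TPM with shETV4 and 0.68 TPM with shRFP and Alb at 0 in both, so the defining markers of hepatocytes were absent or near 0 in these cells. Of 7 biliary and liver progenitor markers 4 reached 1 TPM, and all 7 summed to 613 TPM with shETV4 and 611 TPM with shRFP. Of the 4, Krt19, Sox9 and Spp1 lay above 0 within 2-fold. Cd24a was called lower, at 55.5 TPM with shETV4 and 132 TPM with shRFP, a difference of -1.23. Spp1 gave most of both sums, at 476 TPM with shETV4 and 423 TPM with shRFP. Krt7, Epcam and Prom1 were at no more than 0.23 TPM in either library. Of 16 immune cell markers 2 reached 1 TPM and 7 were at 0 in both, with sums of 17.7 TPM with shETV4 and 10.6 TPM with shRFP. The 2 were Cd14, at 15.2 TPM with shETV4 and 8.68 TPM with shRFP, and Cd68, at 1.98 TPM and 1.01 TPM. Ptprc was at 0.03 TPM with shETV4 and at 0 with shRFP. Of 8 endothelial markers 1 reached 1 TPM, with sums of 19.7 TPM with shETV4 and 14.0 TPM with shRFP. Of 10 stellate cell and fibroblast markers 5 reached 1 TPM, with sums of 879 TPM with shETV4 and 652 TPM with shRFP. The 5 were Col3a1, Col1a1, Pdgfrb, Pdgfra and Dcn, all above 0 within 2-fold. Col3a1 was at 538 TPM with shETV4 and 368 TPM with shRFP, and Col1a1 at 229 TPM and 200 TPM. Lrat was at 0 in both. The part of these markers in the differences was not tested.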

How the data were processed

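RNA sequencing covered 2 libraries, 1 per group, and each library's group was taken from its treatment label. The authors deposited 1 TPM value per gene and library; the unit was read from the column totals of 999870.3 (shETV4) and 999999.77 (shRFP), since the headers name none. Per the submitters' processing notes HISAT2, RSEM and GRCm38.p4 were used, with no roles or versions; the annotation, strand setting and filters stand as not given in the sources used here, and TPM keeps no record of depth. The 153 records without a symbol were left out; they held 2.67% of the TPM with shETV4 and 1.13% with shRFP.

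Differences used a pseudocount of 1, evaluation at 1 TPM in at least 1 library and a limit of 2-fold; with 1 library per group no p-value was computed. GENCODE M21 on GRCm38 gave coordinates, biotype, GC content and exonic overlap, and RefSeq on GRCm38.p6 the promoter windows. The GC content adjustment subtracts the median difference in each of 50 bins. Of a symbol with several records the higher was used. The genes named are the 10, the genes past 2-fold in each pathway list (at most 3 in each direction), the gene of highest mean level in each list, Etv4 and the 3 genes nearest to Zbp1, except 1 gene that is not reported here; Itch, Ripk3, Tbk1, Irf3, Ticam1, Tlr7, Tlr8, Tlr9, Ifnb1, Cxcl10, Il6, Ifi204, Ifi203, Ddx60, Aim2 and the markers named were picked with their values in view, and so were the within-library ratios. The 10 genes, the lists, the alternatives and the GC content adjustment were chosen with earlier results of these data known. Calculations used Python 3.11.15, numpy 2.4.6 and pandas 2.3.3, and were tested on simulated data. Alternatives covered the pseudocount, filter, scale, threshold, gene set and GC content.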

Additional observations from a re-analysis of the deposited data

How the results depend on the processing

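Of 99 values of the 10 genes under the alternatives, 91 kept their side of the 2-fold limit, 8 came past it and none was lost or changed sign past it; of 943 values of pathway genes, 889 kept their side, 26 lost it and 28 came past it. Values under another filter or gene set were bound to keep their side, and at another threshold only the limit moved. These counts therefore include many values that the alternative could not change. The number of the 10 genes called higher, 2 as reported, was 4 with the median ratio set to 1, with the trimmed mean set to 0, with a threshold of 1.5-fold and with GC content adjusted, and none was called lower under any alternative. The median of the 10, 0.41 as reported, was 0.51 with the trimmed mean set to 0 and 0.90 with GC content adjusted. For pathway genes, 3 higher and 8 lower as reported, the number lower was 4 with pseudocount 5, 5 on either other scale, and 1 with GC content adjusted, which gave 6 higher; at 1.5-fold 11 were higher and 18 lower, and at 3-fold 1 and 1. For all genes, 439 higher and 916 lower as reported, the counts were 674 and 1459 with pseudocount 0.1, 167 and 267 with pseudocount 5, 1117 and 2591 at 1.5-fold and 162 and 162 at 3-fold. Higher genes numbered 252 at a filter of 5 TPM and 247 among protein-coding genes, and lower genes 299 with GC content adjusted, against 515 higher; on the scale with the median ratio set to 1 the split was 492 higher and 787 lower, and with the trimmed mean set to 0 it was 523 and 691. The counts at other thresholds differ by construction, and the cause of the other changes was not tested. Tlr3 is left out at a filter of 5 TPM. No paired analysis was possible because there was 1 library per group, and with the depth unknown the counting error of low values such as that of Tlr3 cannot be given.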

Other observations

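With GC content adjusted, 3 sensor-related genes of the pathway lists whose transcripts are poor in GC came past 2-fold upward. Ifi204, a member of the family of interferon-inducible DNA-binding proteins, was at 41.7 TPM with shETV4 and 33.5 TPM with shRFP, a difference of 0.31 as deposited and 1.05 after adjustment. Ifi203, of the same family, was at 11.6 TPM with shETV4 and 9.84 TPM with shRFP, a difference of 0.22 as deposited and 1.02 after adjustment. Ddx60, a helicase gene linked to RIG-I signalling, was at 3.30 TPM with shETV4 and 2.57 TPM with shRFP, 0.27 as deposited and 1.01 after adjustment. The inflammasome DNA sensor gene Aim2 was at 0.29 TPM with shETV4 and 0.03 TPM with shRFP, too low to be evaluated.

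The gene that degrades cGAMP, Enpp1, kept its side of the limit after adjustment, at -1.76, while Ddx3x, Tax1bp1, Tomm70a, Itch, Chuk, Prkdc and Eif2s2, the other pathway genes called lower, came inside it, between -0.84 and -0.19.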
